A study of Mus musculus with 54 samples.

Results

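Messenger RNA of Apaf1 and of 6 caspase genes, Casp1, Casp2, Casp4, Casp6, Casp8 and Casp9, was followed in mouse tissues and in a fibroblast line after 10 Gy of gamma radiation. The 7 genes were taken by name from the 13611 genes of the deposited expression matrix, and all 7 were found there. The irradiated tissues, all of C57B6 mice, were thymus, spleen, large intestine and small intestine, taken hourly from 1 to 8 h and again at 24 h. NIH3T3 cells, an established line of mouse embryonic fibroblasts, received the same dose and were sampled hourly from 1 to 12 h and again at 24 h. Each system also had 1 library at 0 h labelled as not treated, which served as its control. This gave 54 libraries, 10 for each of the 4 tissues and 14 for NIH3T3, with 1 library per time point. The title of the series links p53 dynamics in tissues to their radiation sensitivity. The labels name no genotype, sex or age for the mice and no clone for the cells, and do not say whether animals were pooled. All irradiated libraries were later in time than their control, so radiation, elapsed time and handling cannot be told apart.

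Caspases are proteases that carry out programmed cell death and inflammatory cell death. Apaf1 binds cytochrome c released from mitochondria and assembles the apoptosome, which activates the initiator caspase encoded by Casp9. Casp8 encodes the initiator below death receptors, Casp2 an initiator activated on the PIDDosome after genotoxic stress, and Casp6 an executioner. Casp1 encodes the protease of inflammasomes, and mouse Casp4, also called caspase-11, encodes the sensor of cytosolic lipopolysaccharide. Both inflammatory caspases cleave gasdermin D. Apaf1 is a known transcriptional target of p53. Thymocytes and lymphocytes are known for rapid p53-dependent apoptosis after irradiation.

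Apaf1 rose in spleen and thymus over the first 8 h, where its mean was 4.50 and 4.11 times the 0 h level, and it stood at 1.66 and 1.32 times that level at 24 h. In the 24 h thymus library 3.41 of 12.6 FPKM is the small intestine share estimated from enterocyte markers. The 9.23 FPKM left was not rescaled to the rest of that library. It therefore cannot be ranked against the 9.56 FPKM of 0 h. Casp2 fell in spleen, and in thymus within the first 8 h and at 24 h. Casp1 and Casp4, the inflammatory caspases, rose in thymus and were highest there late, at 8 h or 24 h. No member passed the test in small or large intestine in any comparison. In NIH3T3 only Casp6 passed it, at 24 h.

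Several libraries stood apart or held transcripts of another organ. Tissue markers matched the labels, with summed enterocyte markers at a median of 85324 FPKM in small intestine and colon markers at 16570 FPKM in large intestine. At 0 h, B cell markers summed to 2206 FPKM in spleen and T cell markers to 1812 FPKM in thymus, and in NIH3T3 fibroblast markers summed to a median of 956 FPKM. The thymus library at 24 h held the 6 enterocyte markers Fabp2, Sis, Lct, Apoa4, Apoa1 and Alpi at a median of 10.8% of their level in small intestine at 24 h. The large intestine library at 2 h held them at 37% of small intestine at 2 h. The spleen library at 6 h held pancreatic acinar markers at a sum of 48350 FPKM, against at most 65.0 FPKM in the other spleen libraries. The large intestine library at 1 h held 6 neutrophil markers at a sum of 404 FPKM, against a median of 5.53 FPKM over that tissue. S100a8, S100a9, Cxcr2 and Csf3r each averaged under 1 FPKM in that tissue, so the sum came mostly from Ly6g and Retnlg. The 0 h large intestine library, the only control of its tissue, held 4 keratinocyte markers at a sum of 27.6 FPKM, against at most 4.84 FPKM at later hours. Of the 4, Krt5 and Krt14 averaged under 1 FPKM in that tissue. Krt10 and Krtdap were lower over 1 to 8 h than at 0 h, by -1.79 ± 0.29 and -3.86 ± 0.36 on the log2 scale. The part of these transcripts in the results was not tested, beyond the values given with and without them.

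The genes were located in GENCODE vM21 on build GRCm38. Casp1 (chr9:5298517-5307265, plus strand) and Casp4 (chr9:5308828-5336783, plus strand) are neighbours, 1562 bases apart. Apaf1 lies at chr10:90989311-91082770 on the minus strand and Casp2 at chr6:42264985-42282508 on the plus strand. Casp8 lies at chr1:58795374-58847503, Casp6 at chr3:129901425-129914103 and Casp9 at chr4:141793612-141815976, all on the plus strand. Of these, Casp9 shares exonic bases with other genes: 94 bases, or 1.81% of its exonic length, overlap Cela2a and Ctrc, which are pancreatic protease genes on the opposite strand. The libraries were not directional, so reads there cannot be assigned to a strand.

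Promoters of all 7 members were present in RefSeq (GRCm38.p6), with 2 starts for Casp4. Below are the 250 bases before the annotated start, 5′ to 3′ on the gene's strand, of the 3 members with the clearest time courses. They are Apaf1 (chr10:91082744-91082993, minus strand), Casp2 (chr6:42264735-42264984, plus strand) and the first Casp4 start (chr9:5308599-5308848, plus strand). Capitals mark an E2F match in Casp2 and NF-kB consensus matches in Casp4, and Apaf1 has none of the motifs searched.
Apaf1: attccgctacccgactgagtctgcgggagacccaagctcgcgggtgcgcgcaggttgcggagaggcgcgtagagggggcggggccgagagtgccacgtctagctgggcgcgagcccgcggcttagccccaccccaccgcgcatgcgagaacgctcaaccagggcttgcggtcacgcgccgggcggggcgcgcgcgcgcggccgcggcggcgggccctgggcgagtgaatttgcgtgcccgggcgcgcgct
Casp2: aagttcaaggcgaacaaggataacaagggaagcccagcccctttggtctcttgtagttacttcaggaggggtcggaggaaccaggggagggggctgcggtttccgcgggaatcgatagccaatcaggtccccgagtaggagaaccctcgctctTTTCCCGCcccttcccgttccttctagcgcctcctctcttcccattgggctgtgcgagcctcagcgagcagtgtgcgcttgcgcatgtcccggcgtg
Casp4: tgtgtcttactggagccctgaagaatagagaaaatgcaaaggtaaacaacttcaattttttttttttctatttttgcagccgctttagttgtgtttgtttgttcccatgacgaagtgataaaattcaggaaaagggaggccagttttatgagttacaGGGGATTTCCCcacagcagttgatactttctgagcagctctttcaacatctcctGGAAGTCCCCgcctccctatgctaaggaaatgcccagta
The E2F pattern searched was TTTNNCGC on both strands, and its match begins 97 bases before the Casp2 start. It was found in 4.28% of 32851 promoters of this length and in 1 of the 8 member promoters. The NF-kB consensus was found in 7.25% of promoters, and in both Casp4 promoters. In the printed Casp4 promoter its 3 matches begin 93, 92 and 39 bases before the start, and the first 2 overlap each other. The p53 decamer, found in 7.13% of promoters, and the AP-1 motif TGANTCA, found in 6.75%, matched 0 of the 8 member promoters. A match is a description of letters in this window only.

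The members differed in which system held their highest FPKM. Levels below are FPKM, fragments per unit of transcript length and of library size, as mean ± SD over all libraries of a system (n = 10 per tissue, n = 14 for NIH3T3). Summed FPKM over all genes also differed, at 0 h from 296891 in thymus to 924695 in small intestine. The part of this scale in the differences between systems was not tested. Casp1 stood at 221 ± 27 in large intestine and 213 ± 24 in small intestine, against 39.4 ± 13 in spleen, 29.8 ± 30.2 in thymus and 0.678 ± 0.319 in NIH3T3. The ranges of the intestines overlapped each other, as did those of spleen and thymus, while no intestinal library fell to the spleen range and no thymus library to that of NIH3T3. Casp8 also had its highest means in the intestines, at 114 ± 28 and 85.7 ± 18.4 FPKM for small and large intestine, against 39.1 ± 9.1 for spleen, 38.9 ± 11.2 for thymus and 14.5 ± 1.2 for NIH3T3. Its 24 h thymus library, at 62.8 FPKM, lay above its lowest large intestine library, at 60.4 FPKM. Casp6 stood at 249 ± 22 in small intestine, and its lowest library there, at 210 FPKM, lay above every library of the other systems. The next highest mean was 38.0 ± 26.0 FPKM in large intestine, whose 2 h library was the highest outside small intestine.

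Casp9 was the lowest member in thymus, at 5.30 ± 1.59 FPKM, and reached 15.8 ± 2.2 FPKM in small intestine. Casp2 was highest in thymus, at 29.2 ± 11.5 FPKM, and lowest in NIH3T3, at 9.31 ± 0.84 FPKM, where no library reached the range of any tissue. Casp4 was the most even member, with means between 25.0 ± 5.1 FPKM in NIH3T3 and 38.3 ± 25.9 FPKM in small intestine and overlapping ranges at every step of that order. Apaf1 averaged 33.7 ± 15.5 FPKM in thymus, 31.7 ± 3.9 in small intestine, 24.6 ± 11.4 in spleen, 8.29 ± 3.82 in large intestine and 8.27 ± 1.85 in NIH3T3. Every neighbouring pair in that order overlapped.

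**Figure D1:**
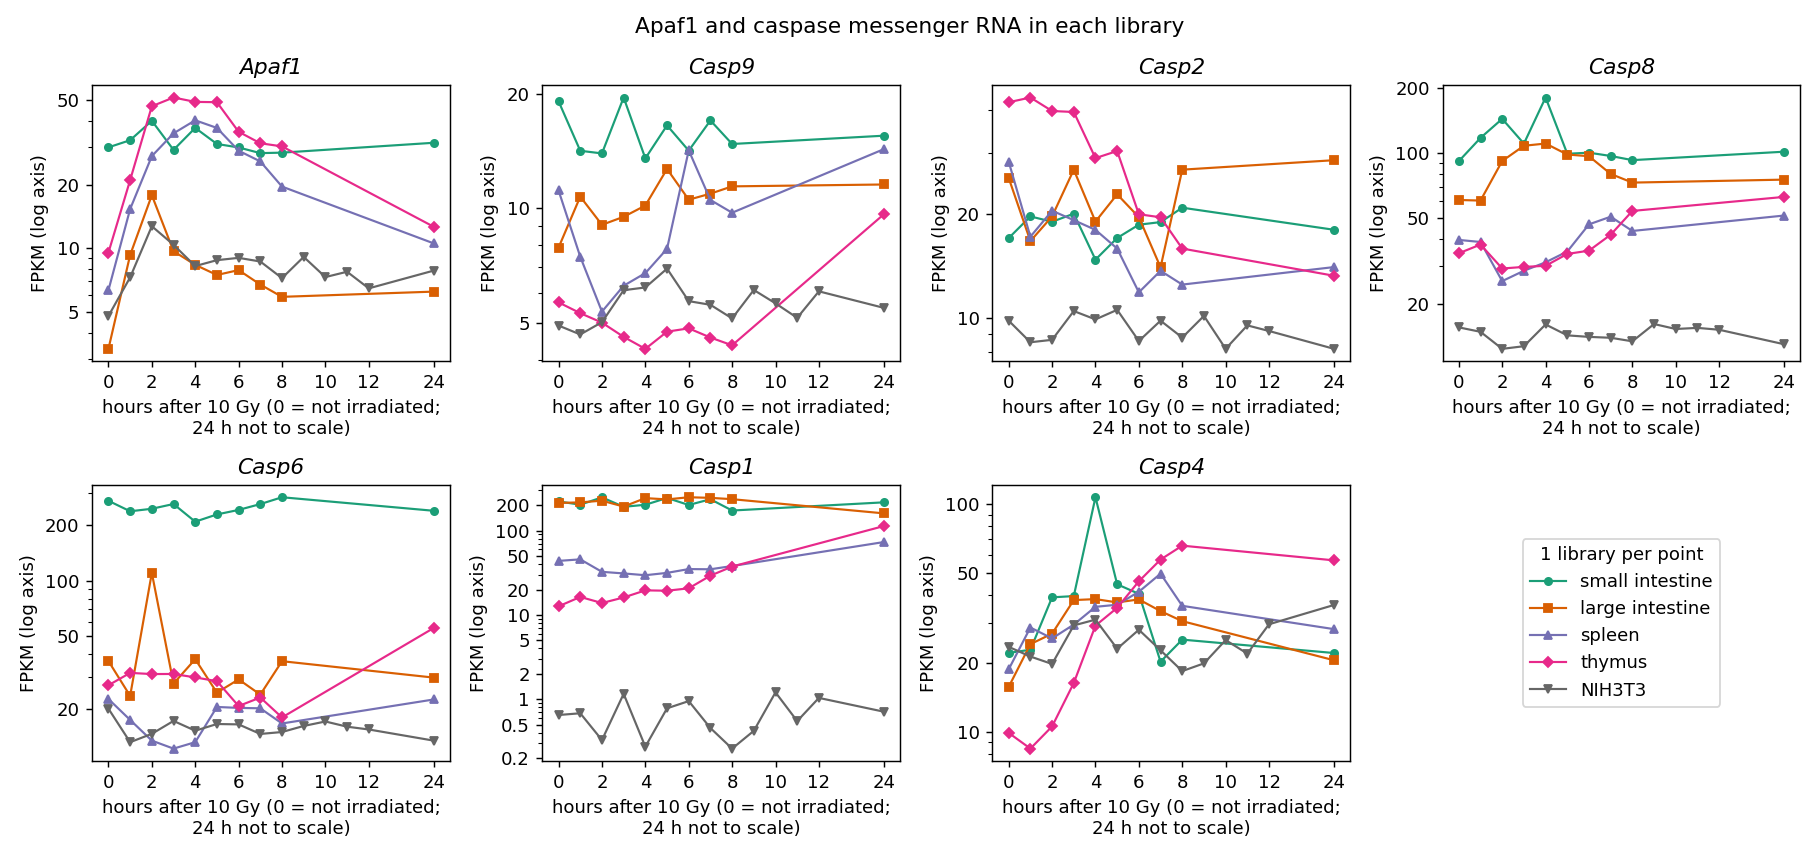
FPKM of Apaf1 and the 6 caspases (log axis) against hours after irradiation, 1 library per point, coloured by system, with 0 h not irradiated. Apaf1 peaked at 51.5 FPKM at 3 h in thymus and at 40.2 FPKM at 4 h in spleen, while Casp2 fell to 13.2 FPKM and Casp1 reached 113 FPKM in thymus at 24 h.

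Changes were tested with limma on log2(FPKM + 1) over all genes of a system, so a log2 fold change is on that scale and understates the change of low genes. A member was called at a Benjamini-Hochberg adjusted p under 0.05. Over 1 to 8 h against 0 h, 1 of 7 members rose and 1 fell in spleen, where 5% of 11791 genes rose and 3.61% fell. In thymus 3 of 7 rose and 0 fell, where 8.24% of 12426 genes rose and 3.9% fell. In small intestine 0 of 7 passed by limma, and 0 had an unadjusted p under 0.05, where 0.316% of 11392 genes passed. In large intestine 0 of 7 passed, with 4 at an unadjusted p under 0.05, where 1.51% of 11854 genes passed. In NIH3T3, where 6 members reached the filter, 0 passed, with 2 at an unadjusted p under 0.05, where 4.47% of 10385 genes passed.

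Apaf1, the apoptosome scaffold, had the largest change of the members over the first 8 h in spleen and thymus. Its level in thymus at 0 h and then at each hour from 1 to 8 h was 9.56, 21.0, 46.8, 51.5, 49.1, 48.9, 35.5, 31.3 and 30.3 FPKM, and it was 12.6 FPKM at 24 h. All 8 irradiated libraries of the first 8 h lay above 0 h, the mean of the 8 was 39.3 ± 11.3 FPKM, and the 24 h library was close to 0 h. The log2 fold change over 1 to 8 h was 1.88 ± 0.30 (SE; limma adjusted p = 0.000252). In spleen the levels from 0 to 8 h were 6.35, 15.3, 27.2, 34.9, 40.2, 37.0, 28.9, 25.7 and 19.6 FPKM, and 10.6 FPKM followed at 24 h. Again all 8 lay above 0 h, and the log2 fold change was 1.95 ± 0.30 (limma adjusted p = 0.000179). After the peak, Apaf1 averaged 32.4 ± 2.8 FPKM at 6 to 8 h in thymus, against 49.8 ± 1.4 FPKM at 3 to 5 h, and 24.7 ± 4.7 FPKM at 6 to 8 h in spleen, against 37.4 ± 2.7 FPKM at 3 to 5 h (SD, n = 3 each). No late library reached the 3 to 5 h range in either organ, and this difference was not tested. The contrast of 6 to 8 h with 1 to 5 h takes in the 1 h library, before the peak, and gave -0.35 ± 0.21 in thymus (limma adjusted p = 0.202) and -0.26 ± 0.21 in spleen (limma adjusted p = 0.371). Without the 1 h library the thymus value was -0.59 and was called (adjusted p = 0.0189, range over alternatives 0.0189 to 0.404). At 24 h against 0 h the difference was 0.37 ± 0.40 in thymus and 0.65 ± 0.40 in spleen, and neither passed (limma adjusted p = 0.475 and 0.257). The range over alternatives was 0.192 to 0.938 in thymus and 0.0466 to 0.374 in spleen.

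In large intestine Apaf1 averaged 9.16 ± 3.72 FPKM at 1 to 8 h, with a lowest value of 5.91, a median of 8.14 and a highest of 17.8 FPKM, against 3.36 FPKM at 0 h. All 8 irradiated libraries were above 0 h, and the log2 fold change of 1.15 ± 0.30 just missed the threshold (limma adjusted p = 0.0515). The only control library was the one with keratinocyte markers, at 27.6 FPKM, against at most 4.84 FPKM later. The highest value came from the 2 h library with small intestine transcripts. That library's enterocyte share times the small intestine level amounts to 14.8 of its 17.8 FPKM. Without the 3 libraries that held another organ's transcripts, at 2 h in large intestine, 6 h in spleen and 24 h in thymus, the change was 1.02 and passed (limma adjusted p = 0.0346). Over all alternatives its adjusted p ran from 0.000875 to 0.352.

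In small intestine Apaf1 stood at 30.0 FPKM at 0 h, with no called change after it. Summed FPKM over all genes at 0 h was 924695 there and 296891 in thymus, so levels of different tissues are not directly comparable. At 1 to 8 h its lowest, median and highest values were 28.1, 30.5 and 39.98 FPKM. The irradiated libraries lay on both sides of the control, 4 above and 4 below, and the log2 fold change was 0.08 ± 0.30 (limma adjusted p = 1). Bax and Bbc3, pro-apoptotic genes upstream of Apaf1 and known p53 targets, rose there by 1.53 ± 0.26 and 1.26 ± 0.25 (limma adjusted p = 0.00452 and 0.0231), and Ccng1, a further p53 target, by 2.68 ± 0.22 (limma adjusted p = 2.11e-07).

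The difference in response between tissue pairs was tested directly. The mean change of spleen and thymus minus that of the intestines was 1.295 ± 0.30 for Apaf1 (limma adjusted p = 0.0199). Of the 7 members 1 rose in this contrast and 0 fell, where 1.92% of 9980 genes were higher and 0.852% lower. With windows of 1 to 3, 4 to 6 and 7 to 8 h the call was lost (adjusted p = 0.105), and over all alternatives the adjusted p ran from 0.000292 to 0.105. Spleen minus thymus gave 0.07 ± 0.42 for Apaf1 and 0 of 7 members called, with 1 at an unadjusted p under 0.05, where limma called 0.385% of 11443 genes. Small minus large intestine gave -1.07 ± 0.42 for Apaf1 (limma adjusted p = 0.451) and 0 of 7 called, with 2 at an unadjusted p under 0.05, where 0.137% of 10976 genes passed.

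**Figure D2:**
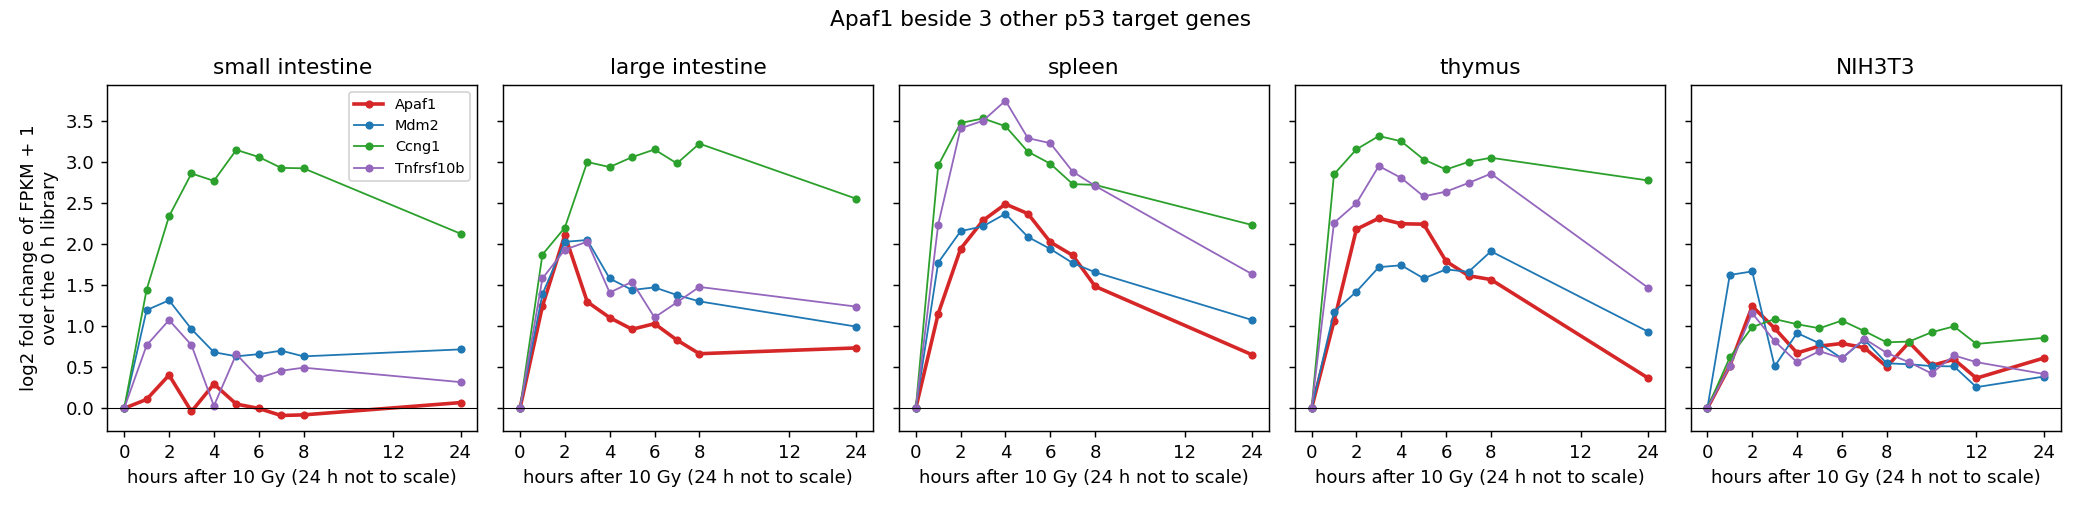
Log2 fold change of FPKM + 1 over the 0 h library against hours after irradiation, 1 panel per system, for Apaf1 (thick red line) and the p53 targets Mdm2, Ccng1 and Tnfrsf10b. Over 1 to 8 h Apaf1 averaged 0.08 in small intestine and 1.95 in spleen, while Ccng1 averaged 2.68 and 3.12.

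**Figure D3:**
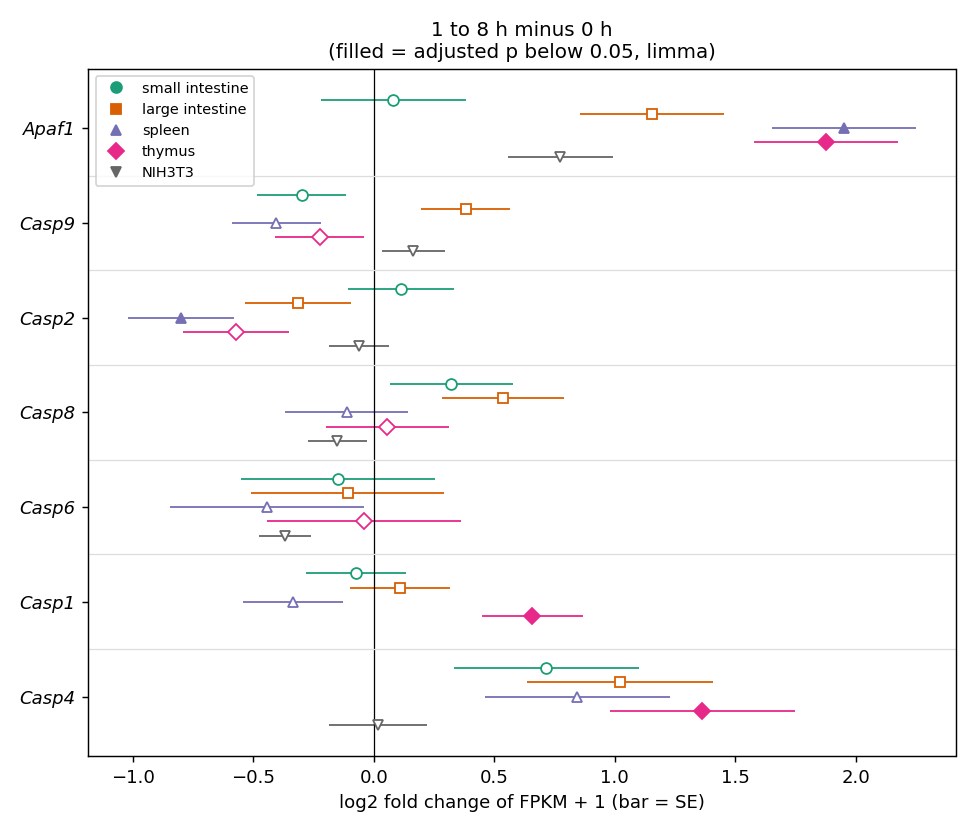
Log2 fold change at 1 to 8 h minus 0 h for each member and system, with bars of 1 SE, filled where the limma adjusted p was under 0.05. Filled points are Apaf1 in spleen and thymus, Casp2 in spleen, and Casp1 and Casp4 in thymus, and Casp1 has no NIH3T3 point because it stayed under the filter.

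Casp9, the protease that Apaf1 activates, had no call over 1 to 8 h in any system. In thymus its lowest, median and highest values at 1 to 8 h were 4.27, 4.66 and 5.30 FPKM, against 5.66 FPKM at 0 h. All 8 lay below 0 h, by -0.22 ± 0.18 on the log2 scale (limma adjusted p = 0.489). In spleen Casp9 stood at 14.2, 10.5 and 9.74 FPKM at 6, 7 and 8 h, against 7.46, 5.35, 6.26, 6.75 and 7.83 FPKM at 1 to 5 h. The windows did not overlap, and the late one was higher by 0.69 ± 0.13 (limma adjusted p = 0.000447). The 0 h and 24 h spleen libraries, at 11.1 and 14.3 FPKM, lay at the upper end, so the low values were those of 1 to 5 h. The highest of the late values came from the 6 h library, in which the overlapping antisense gene Cela2a stood at 16400 FPKM, against 46.3 FPKM at 7 h and 0 at 8 h. Without that library the change was 0.53 and still called. With windows of 7 to 8 against 1 to 6 h it was 0.37 and not called, and over all alternatives the adjusted p ran from 0.00022 to 0.194.

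Casp2, the initiator of the PIDDosome, fell in both lymphoid organs. In thymus it stood at 42.0 FPKM at 0 h and at 43.3, 39.6, 39.4, 29.0, 30.4, 19.9, 19.5 and 15.9 FPKM at 1 to 8 h, and it reached 13.2 FPKM at 24 h. The 3 late libraries all lay below the 5 early ones. The change at 6 to 8 h against 1 to 5 h was -0.93 ± 0.15 (limma adjusted p = 5.79e-05) and at 24 h against 0 h -1.59 ± 0.29 (limma adjusted p = 0.000125). Of the 24 h level 1.95 FPKM is the small intestine share, as estimated from the enterocyte markers. Over 1 to 8 h as a whole it was -0.57 ± 0.22 and did not pass (limma adjusted p = 0.0942). In spleen the 8 irradiated libraries held 11.9 to 20.4 FPKM, with a median of 16.5, against 28.3 FPKM at 0 h. All 8 were lower, by -0.80 ± 0.22 (limma adjusted p = 0.0239, range over alternatives 0.00468 to 0.0646). The 24 h spleen library, at 14.04 FPKM, was lower than 0 h by -0.96 ± 0.29 (limma adjusted p = 0.0229, range over alternatives 0.00613 to 0.0536). Within the first hours in spleen, Casp2 held 11.9, 13.7 and 12.5 FPKM at 6 to 8 h, against 17.2, 20.4, 19.2, 18.0 and 15.9 FPKM at 1 to 5 h. These windows did not overlap, and the late one was lower by -0.48 ± 0.15 (limma adjusted p = 0.0212, range over alternatives 0.00767 to 0.271). That call was lost without the 2 h, the 6 h or the 8 h spleen library (adjusted p = 0.0547, 0.0827 and 0.068), of which the 6 h library held acinar markers at 48350 FPKM.

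T cell markers in thymus and B cell markers in spleen fell beside Casp2. In thymus the sum of 6 T cell markers was 295 FPKM at 24 h, 807 to 954 at 6 to 8 h and 1329 to 1683 at 1 to 5 h, against 1812 FPKM at 0 h. All 6 T cell markers were lower at 24 h than at 0 h. In spleen the sum of 6 B cell markers was 289 FPKM at 24 h and 317 to 334 FPKM at 6 to 8 h, against 2206 FPKM at 0 h. The spleen T cell markers had no call over 1 to 8 h, with log2 fold changes from -0.99 (Lck) to 0.17 (Cd4). At 24 h against 0 h Cd4 was higher there by 0.77, and the other T cell markers were lower, from -2.05 (Cd3d) to -1.70 (Cd3e). In bulk tissue, fewer cells of a type and less RNA per cell cannot be told apart, and the part of these markers in the fall of Casp2 was not tested. In the intestines and NIH3T3 Casp2 had no call, with log2 fold changes over 1 to 8 h of 0.11 ± 0.22 in small intestine, -0.31 ± 0.22 in large intestine and -0.06 ± 0.12 in NIH3T3. Pidd1, which encodes the sensor that activates caspase-2, rose over the same hours in spleen by 1.45 ± 0.36, in thymus by 1.24 ± 0.36 and in NIH3T3 by 1.05 ± 0.18 (limma adjusted p = 0.0126, 0.0239 and 0.0118). Its adaptor Cradd was not called in any of these.

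Casp8, the initiator below death receptors, differed between early and late hours in spleen. There it stood at 46.8, 50.8 and 43.6 FPKM at 6 to 8 h, against 38.8, 25.5, 28.5, 31.2 and 35.0 FPKM at 1 to 5 h. The 0 h library, at 39.6 FPKM, lay above every early value and below every late one, and the 24 h library held 51.4 FPKM. The early and late windows did not overlap, and the difference between them was 0.56 ± 0.18 (limma adjusted p = 0.0196, range over alternatives 0.00681 to 0.171). The call was lost when the 2 h, the 6 h or the 7 h spleen library was left out (adjusted p = 0.0507, 0.0541 and 0.0809), the 6 h one being that with acinar markers at 48350 FPKM. In thymus the late libraries held 35.3, 41.9 and 54.03 FPKM, against 29.2 to 37.7 FPKM at 1 to 5 h, and the 6 h value lay within the early range. That change of 0.42 ± 0.18 did not pass (limma adjusted p = 0.0714). In small intestine all 8 irradiated libraries, with 93.0 FPKM as the lowest and 182 FPKM as the highest, lay above the 91.9 FPKM of 0 h. The change of 0.32 ± 0.25 did not pass there (limma adjusted p = 0.948), and neither did that of 0.54 ± 0.25 in large intestine (limma adjusted p = 0.344), where the control held the keratinocyte markers at 27.6 FPKM.

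Of 8 adaptors, receptors and regulators of Casp8, 2 rose and 0 fell over the first 8 h in spleen, where 5% of all genes rose and 3.61% fell. In thymus likewise 2 of 8 rose and 0 fell, where 8.24% rose and 3.9% fell, and both times these were Tnfrsf10b and Fas. Tnfrsf10b, the mouse TRAIL receptor, rose by 3.12 ± 0.30 in spleen, 2.67 ± 0.30 in thymus and 1.55 ± 0.30 in large intestine (limma adjusted p = 3.9e-07, 4.61e-06 and 0.00881). Fas, the receptor of Fas ligand, rose by 2.05 ± 0.30 in spleen and 1.303 ± 0.30 in thymus (limma adjusted p = 9.56e-05 and 0.00483). Casp8 changed by -0.11 ± 0.25 in spleen and 0.06 ± 0.25 in thymus over the same hours. Cflar, which encodes the inhibitor c-FLIP, was higher in thymus at 6 to 8 h than at 1 to 5 h by 0.74 ± 0.13 (limma adjusted p = 0.000159).

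Casp6, an executioner, had no call in any tissue in the joint fit of the tissues, which used a common spread. Its within-window SD (log2) was 0.738 in large intestine, 0.282 in spleen, 0.125 in small intestine and 0.116 in thymus. The part of the large intestine spread in the missing calls was not tested. In small intestine Casp6 stayed between 210 and 285 FPKM at all 10 hours. In large intestine 7 of the 8 irradiated libraries at 1 to 8 h held 23.6 to 37.4 FPKM, against 36.6 FPKM at 0 h, and the 2 h library held 110 FPKM. The enterocyte share of that library times the small intestine level amounts to 91.1 FPKM. In thymus Casp6 stood at 55.4 FPKM at 24 h, against 27.0 FPKM at 0 h, with a change of 1.01 ± 0.54 (limma adjusted p = 0.131), and 26.0 FPKM of it is the small intestine share by the same reckoning. In a fit of thymus alone the 24 h difference was called (adjusted p = 0.00279), and so was a lower level at 6 to 8 h than at 1 to 5 h, -0.54 on the log2 scale (adjusted p = 0.00431). The lower level at 6 to 8 h was also called with quantile normalization, at -0.70 (limma adjusted p = 0.0266). Without the libraries that held another organ's transcripts it was called too, at -0.54 (limma adjusted p = 0.00872). The other alternatives run did not call it. With the small intestine share removed, an alternative added after the data were seen, the 24 h difference was 0.12 (adjusted p = 0.879).

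In NIH3T3 Casp6 gave the only call among members. It stood at 13.5 FPKM at 24 h, against 20.1 FPKM at 0 h, a change of -0.54 ± 0.14 (limma adjusted p = 0.0276, range over alternatives 0.0204 to 0.0407). The 12 libraries between these hours held 13.2 to 17.3 FPKM, all below 0 h, and the change over 1 to 8 h was -0.37 ± 0.11 (limma adjusted p = 0.0636). Of the 6 members tested at 24 h 0 rose and 1 fell, where 5.64% of genes rose and 5.4% fell.

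Casp1, the inflammasome protease, rose in thymus and passed the test in no other system. In thymus it stood at 12.6 FPKM at 0 h and at 16.3, 13.8, 16.1, 19.5, 19.3, 20.7, 29.2 and 37.4 FPKM at 1 to 8 h, and it reached 113 FPKM at 24 h. All 9 irradiated libraries lay above 0 h, and the 3 late ones above all 5 early ones. The changes were 0.66 ± 0.21 over 1 to 8 h (limma adjusted p = 0.0398), 0.71 ± 0.14 at 6 to 8 h against 1 to 5 h (limma adjusted p = 0.000554) and 3.06 ± 0.28 at 24 h (limma adjusted p = 1.04e-08). The first of these was lost without the 7 h or the 8 h library (adjusted p = 0.0941 and 0.0696), and its adjusted p ran from 0.0191 to 0.136 over the alternatives. Of the 113 FPKM at 24 h, 23.3 FPKM is the estimated small intestine share, and without it the change was 2.73 and remained called.

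In spleen Casp1 stood at 73.0 FPKM at 24 h, against 43.6 FPKM at 0 h, and the difference of 0.73 ± 0.28 did not pass (limma adjusted p = 0.065). Between them, 7 of the 8 libraries at 1 to 8 h lay below 0 h, with a lowest value of 29.5 FPKM, and the change was -0.33 ± 0.21 (limma adjusted p = 0.357). The difference between the spleen and the thymus change over 1 to 8 h, -0.99 ± 0.30, did not pass (limma adjusted p = 0.169). In the intestines Casp1 kept between 160 and 248 FPKM. In NIH3T3 its highest library held 1.21 FPKM, and its mean was under the filter of 1 FPKM.

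Casp4, the lipopolysaccharide sensor, rose step by step in thymus. It stood at 9.86 FPKM at 0 h and at 8.41, 10.5, 16.3, 29.2, 35.0, 45.8, 57.1 and 65.7 FPKM at 1 to 8 h, with 56.6 FPKM at 24 h. The libraries at 1 and 2 h were close to 0 h, and all later ones were higher. The changes were 1.36 ± 0.38 over 1 to 8 h (limma adjusted p = 0.0209), 1.63 ± 0.26 at 6 to 8 h against 1 to 5 h (limma adjusted p = 5.58e-05) and 2.41 ± 0.51 at 24 h (limma adjusted p = 0.000573). The first was lost without the 7 h or the 8 h library (adjusted p = 0.0586 in both cases), and its adjusted p ran from 0.00337 to 0.0586. Of the 24 h level only 2.40 FPKM is the estimated small intestine share.

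In spleen Casp4 held 25.7 to 49.5 FPKM at 1 to 8 h, with a median of 35.5, against 18.8 FPKM at 0 h. All 8 libraries were higher, but the change of 0.85 ± 0.38 did not pass (limma adjusted p = 0.186). A fit of spleen alone called it (adjusted p = 0.04), and the adjusted p ran up to 0.261. In large intestine Casp4 held 24.2 to 38.2 FPKM at 1 to 8 h, with a median of 35.4, against 15.7 FPKM at 0 h. Here too all 8 libraries were higher and the change of 1.02 ± 0.38 did not pass (limma adjusted p = 0.207), again against the control with keratinocyte markers at 27.6 FPKM. In NIH3T3 the change was 0.02 ± 0.20 (limma adjusted p = 0.969).

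Markers of myeloid cells and of epithelium were higher in thymus at 6 to 8 h than at 0 h, as were Casp1 and Casp4. At 24 h the neutrophil and epithelial sums lay below their 6 to 8 h ranges, and the macrophage and monocyte sum lay within its range. Casp1 was highest at 24 h, at 113 FPKM. Casp4 held 56.6 FPKM then, within its 6 to 8 h range of 45.8 to 65.7 FPKM. The sum of 6 macrophage and monocyte markers was 1267 FPKM at 24 h, 1061 to 1515 at 6 to 8 h and 479 to 868 at 1 to 5 h, against 417 FPKM at 0 h. The sum of 6 neutrophil markers was 256 FPKM at 24 h, 535 to 1799 at 6 to 8 h and 135 to 305 at 1 to 5 h, against 105 FPKM at 0 h. The sum of 4 epithelial markers was 1033 FPKM at 24 h and 1528 to 2711 at 6 to 8 h, against 320 FPKM at 0 h, and the 24 h library also held the enterocyte markers at 10.8% of small intestine. In spleen the macrophage and monocyte sum was 8888 FPKM at 24 h, against 2497 FPKM at 0 h. The part of these markers in the changes of Casp1 and Casp4 was not tested.

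**Figure D4:**
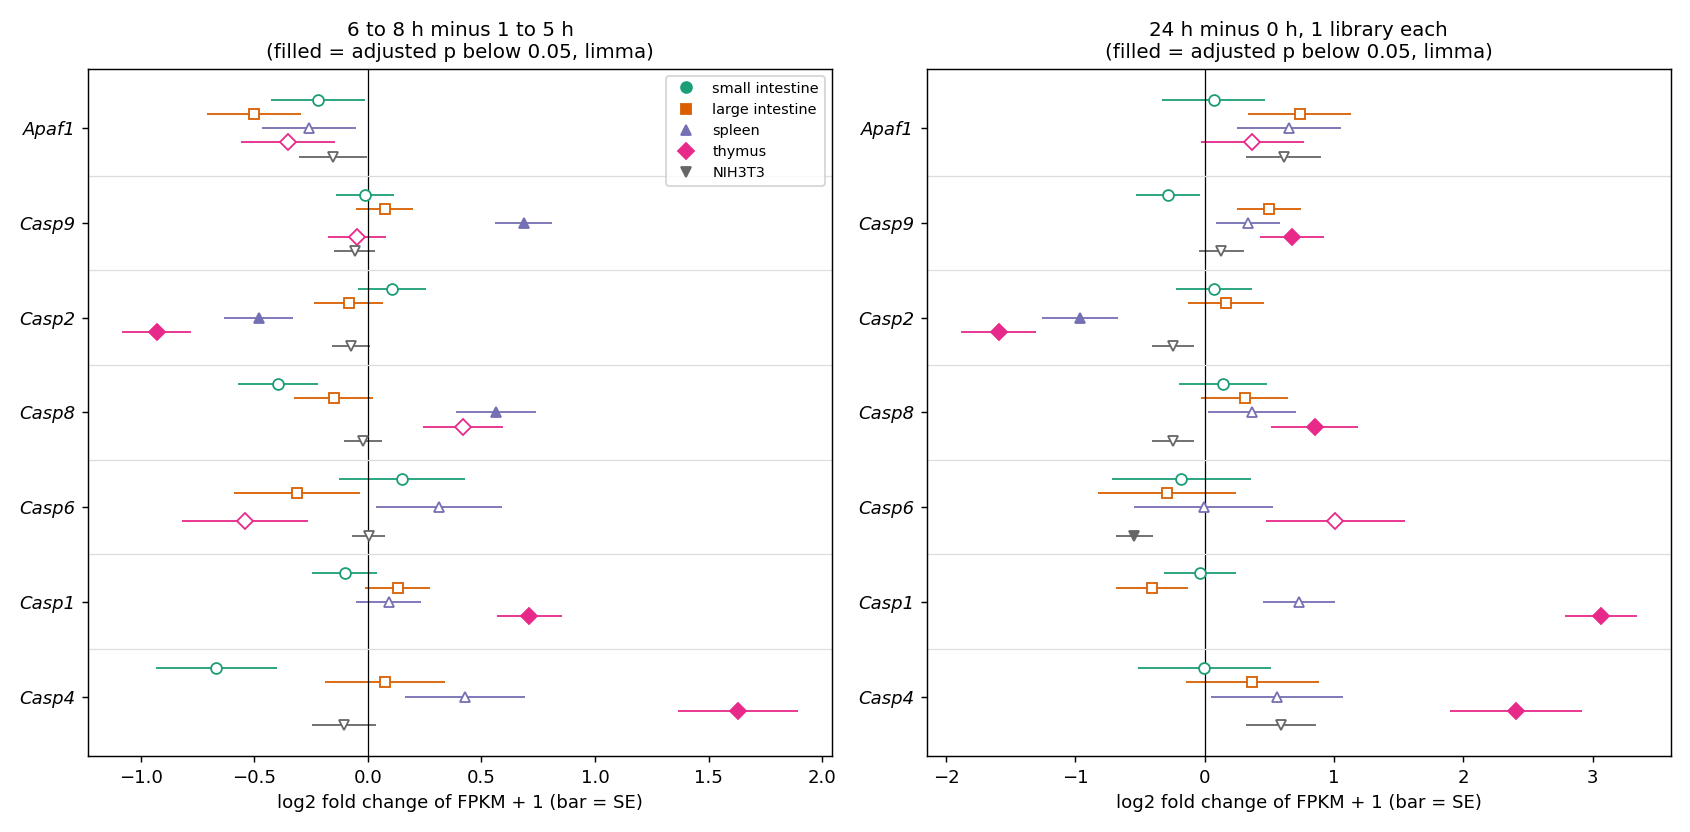
Log2 fold changes of each member and system at 6 to 8 h minus 1 to 5 h (left) and at 24 h minus 0 h (right, 1 library each), with bars of 1 SE, filled where the limma adjusted p was under 0.05. Most filled points belong to thymus, where Casp4 (1.63 and 2.41) and Casp1 (0.71 and 3.06) were higher and Casp2 (-0.93 and -1.59) lower.

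Within the first 8 h, 2 of 7 members rose and 1 fell in spleen at 6 to 8 h against 1 to 5 h, where 15.4% of genes rose and 12.2% fell. In thymus 2 of 7 rose and 1 fell, where 18.6% rose and 13.4% fell. In small intestine 0 of 7 passed, with 2 at an unadjusted p under 0.05, and limma called 0.579% of all genes. In large intestine 0 of 7 passed, with 1 at an unadjusted p under 0.05, where 0.54% passed. In NIH3T3 0 of 6 passed, with 0 at an unadjusted p under 0.05, where 2.3% passed. The spleen count fell to 0 with windows of 7 to 8 against 1 to 6 h, and to 1 without the 2 h or the 6 h library.

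At 24 h against 0 h, with 1 library on each side and no replicate check, 4 of 7 members rose and 1 fell in thymus, where 26.4% of genes rose and 18.6% fell. Casp8 and Casp9 were among the 4. Casp8 stood at 62.8 FPKM at 24 h, against 34.4 FPKM at 0 h (0.85 ± 0.34, limma adjusted p = 0.0445), and Casp9 at 9.65 FPKM, against 5.66 FPKM (0.68 ± 0.25, limma adjusted p = 0.0283). The rest of that library was not rescaled, and its small intestine share is estimated at 11 FPKM of Casp8 and 1.68 FPKM of Casp9. With it removed both calls were lost (adjusted p = 0.176 and 0.164), the Casp8 call was also lost without the 4 h or the 7 h thymus library (adjusted p = 0.0506 in both cases), and over all alternatives the adjusted p ran from 0.037 to 0.176 for Casp8 and from 0.0187 to 0.164 for Casp9. In spleen 0 of 7 rose and 1 fell, where 13.2% rose and 7.47% fell. In the intestines 0 of 7 passed by limma, with 0 at an unadjusted p under 0.05, where 0.184% of genes passed in small intestine and 0.262% in large intestine. The median change of all genes at 24 h was 0.15 in thymus and 0.09 in spleen. Quantile normalization moved these medians by -0.29 and -0.12, and median scaling moved the thymus median by -0.11.

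In NIH3T3 at 9 to 12 h against 1 to 5 h, 0 of 6 members passed, with 0 at an unadjusted p under 0.05, where limma called 13.6% of genes. Apaf1 stood at 4.80 FPKM at 0 h and was highest at 2 h, at 12.7 FPKM, and the 8 libraries of 1 to 8 h averaged 9.05 ± 1.79 FPKM. All 8 lay above 0 h, and the change of 0.78 ± 0.22 missed the threshold (limma adjusted p = 0.0563, range over alternatives 0.0202 to 0.123). Pulses of p53 are known in fibroblast lines, so the 12 libraries of 1 to 12 h were fitted with a 5 h rhythm. By the limma F-test 0 of 10385 genes passed, and 328 had an unadjusted p under 0.05. Among the 6 members the lowest unadjusted p was that of Casp8 (0.102, limma adjusted p = 1), with an amplitude of 0.11 on the log2 scale.

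The small intestine library at 4 h stood apart for Casp4 and Casp8. Casp4 held 107 FPKM there, against 44.4 FPKM in the next highest small intestine library, and Casp8 held 182 FPKM, against 145 FPKM at 2 h. By the log2 gap above the next library, Casp4 ranked 10 and Casp8 170 among 11392 genes. The genes that ranked above Casp4 were Nos2, Duox2, Rasd1, Ptk6, Ccl28, Saa1, Duoxa2, Tifa and B3galt5, named after their values were seen. Nos2, the inducible nitric oxide synthase, held 35.2 FPKM, against 4.61 in the next library, and Duox2, an epithelial oxidase, 21.6 FPKM, against 3.33. Casp1 did not share the peak, with 202 FPKM at 4 h inside its range over the other hours. There was 1 library at that hour, so the peak has no replicate check.

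**Figure D5:**
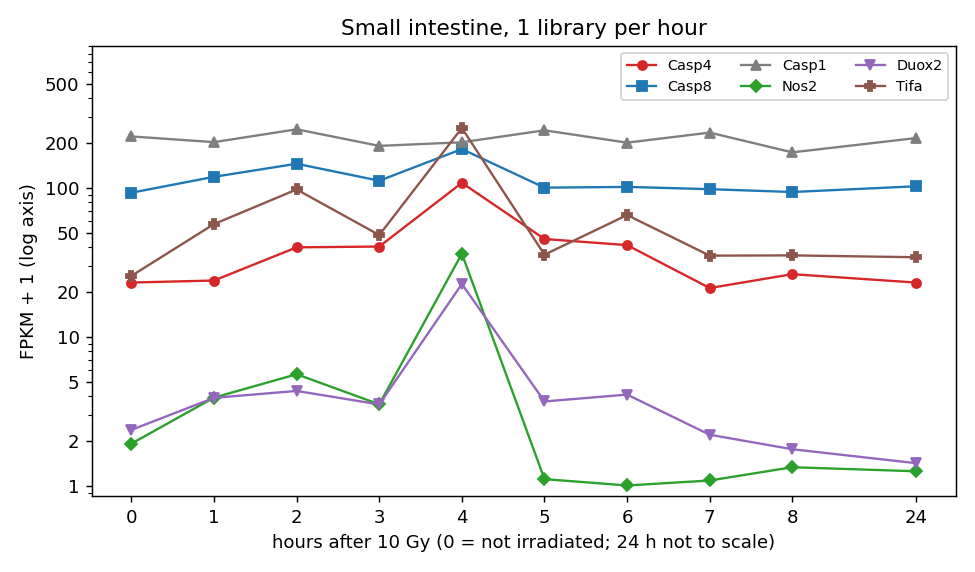
FPKM + 1 (log axis) of Casp4, Casp8 and Casp1 and of Nos2, Duox2 and Tifa in small intestine against hours after irradiation, 1 library per point. All but Casp1 were highest in the 4 h library, where Casp4 held 107 FPKM and Tifa 252 FPKM.

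The remaining genes of these pathways were counted over lists. Of 44 tested in small intestine over 1 to 8 h, 2 rose and 0 fell, with a median change of 0.09 against -0.02 for all genes. Over all genes 0.316% passed there. In large intestine 5 of 43 rose and 0 fell, where 1.51% of all genes passed. In spleen 12 of 45 rose and 1 fell, where 5% of all genes rose and 3.61% fell. In thymus 13 of 45 rose and 3 fell, where 8.24% of all genes rose and 3.9% fell. In NIH3T3 5 of 38 rose and 1 fell, where 4.47% of all genes passed. Among 10 genes of the BCL2 family, which act on mitochondria upstream of Apaf1, 5 rose in spleen, where 5% of all genes did, and 4 in thymus, where 8.24% did. Bbc3, which encodes PUMA, rose by 3.66 ± 0.25 in spleen and 3.44 ± 0.25 in thymus (limma adjusted p = 2.42e-09 and 6.31e-09).

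Of 9 inflammasome genes tested in thymus, 3 rose over 1 to 8 h, where 8.24% of all genes did, and 6 rose at 24 h, where 26.4% did. The 24 h library held the enterocyte markers at 10.8% of small intestine and the macrophage and monocyte markers at a sum of 1267 FPKM, against 417 FPKM at 0 h, and their part in this count was not tested. Nlrp3, an inflammasome sensor, rose by 1.55 ± 0.22 and Il1b, the cytokine precursor cleaved by caspase-1, by 4.13 ± 0.58 over 1 to 8 h (limma adjusted p = 8.9e-05 and 6.32e-05). At 24 h Gsdmd, the gasdermin cleaved by both caspases, was higher by 1.43 ± 0.22 and Nlrc4, a sensor of bacterial proteins, by 2.43 ± 0.31 (limma adjusted p = 1.23e-05 and 1.37e-06). Pycard, the inflammasome adaptor, was lower late in thymus, by -0.56 ± 0.15 at 6 to 8 h against 1 to 5 h (limma adjusted p = 0.00486). The median of the 9 at 24 h was 1.67, against 0.15 for all genes tested. In spleen 2 of the 9 rose over 1 to 8 h, where 5% of all genes did, Il1b by 2.82 ± 0.58 and Nlrp3 by 0.73 ± 0.22 (limma adjusted p = 0.00299 and 0.0437).

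Courses of the members over the 54 libraries were compared after the mean of each system was subtracted from log2(FPKM + 1). Libraries of one system share a tissue and a time series, so correlations are descriptions. Apaf1 was most like Ercc5 (Pearson r = 0.885), Tnfrsf10b (0.882) and Rnf169 (0.877) among 9023 genes. Casp2 was most like Cdc7 (r = 0.835), Wdr76 (0.821) and Mcm7 (0.816), and Casp4 most like Dstn (0.821), Prr13 (0.817) and Tmbim1 (0.812). The most alike genes were Naip2 for Casp1 (r = 0.819), Khk for Casp6 (0.858), Sptlc2 for Casp8 (0.821) and Fbxo25 for Casp9 (0.744). Among the members themselves the strongest correlations were those of Casp2 with Casp4 (r = -0.717) and with Casp1 (-0.635), and of Casp4 with Casp8 (0.577). Apaf1 correlated with Casp9 at r = -0.43. Within the 10 thymus libraries Casp2 and Casp4 had r = -0.933, and Casp1 and Casp8 r = 0.897.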

How the data were processed

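Expression was measured by sequencing of polyadenylated RNA in 54 libraries, grouped by system and time as the labels' titles give them. Per the submitters' processing notes, the authors used TopHat2 2.1.0 and Cufflinks 2.1.1 with build mm10, which corresponds to GRCm38. The deposited values are FPKM per gene symbol. The sources used here give neither any further scaling nor how the 13611 genes were chosen. Per the labels, libraries were non-directional TruSeq.

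The members, gene lists and tests were chosen with earlier results of these data known. All p-values come from limma 3.58.1 in R 4.3.3 on log2(FPKM + 1), two-sided, with a trend of variance over expression and Benjamini-Hochberg adjustment over all genes with a mean of at least 1 FPKM in the system. Windows of 1 to 2, 3 to 5 and 6 to 8 h had their own means, neighbouring hours serving as replicates. No label says that libraries came from separate animals or cultures, so each p-value reflects only library-to-library spread, which may be technical. The 40 tissue libraries were fitted together (20 residual degrees of freedom), and the 14 NIH3T3 libraries alone (8). Single libraries at 0 h and 24 h were assumed to vary like those within windows. The script was tested on simulated data.

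Depth is unknown, since the sources used here give no fragment totals, and no counting interval was computed. Low FPKM values gave a rough ratio of deepest to shallowest library of 1.89 to 2.37 within systems. No library duplicated another. The small intestine share of a library was the median ratio of 6 enterocyte markers to small intestine at the same hour, times a gene's small intestine level. It is an estimate without a spread and assumes that the 6 markers stand for all transcripts of that origin. Where it was subtracted, the rest of the library was not rescaled, so what is left is understated. Named genes are all members, listed pathway genes past the threshold and regulators, and the 3 genes with the highest correlation to a member. Some genes of the lists are not reported here. Promoters and symbols came from RefSeq, where 13027 symbols matched. Alternatives were another pseudocount (0.1), no filter, quantile normalization, median scaling, other windows, no trend, separate fits, an hour block and left-out libraries.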

Additional observations from a re-analysis of the deposited data

Results flagged for a closer look

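The highest of the 8 libraries at 1 to 8 h stood far from the rest in 3 of 42 sets of values tested (the 7 members by system and window, 4 or 8 libraries each), and chance gives about 1 in 20. Casp4 held 107.3 FPKM in small intestine at 4 h, and the next highest library held 44.43 FPKM. Casp6 held 110.4 FPKM in large intestine at 2 h, the next 37.43 FPKM, and Apaf1 17.82 FPKM in the same library, the next 9.705 FPKM. That library held enterocyte markers at 37% of small intestine. The small intestine share estimated from them was 91.1 FPKM of its Casp6 and 14.8 FPKM of its Apaf1, an estimate without a spread that was not tested.

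The change of Apaf1 over 1 to 8 h was higher by 1.295 (log2) in spleen and thymus than in the intestines, by a limma interaction contrast (adjusted p = 0.0199).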

How the results depend on the processing

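Of 2756 member values under the alternatives, 2701 stayed on the same side of the threshold, 29 calls were lost, 26 were gained and 0 called values reversed, while 54 uncalled values changed sign. Of 19 calls, 9 were never lost under the alternatives run, among them Apaf1 over 1 to 8 h in spleen and thymus. The number of members called in large intestine over 1 to 8 h, 0 as reported, was 1 with a pseudocount of 0.1, with median scaling, without the 3 libraries that held another organ's transcripts, and 0 to 1 with single libraries left out (1 without the 1 h, 2 h, 7 h or 8 h library). Late in thymus it was 5 instead of 3 with quantile normalization, and for spleen and thymus against the intestines 2 instead of 1. At 24 h in thymus it was 3 instead of 5 with median scaling, with other window borders and with the small intestine share removed (added after the data were seen). Other window borders gave 1 instead of 2 in spleen and 1 instead of 0 in NIH3T3 over 1 to 8 h, 0 instead of 3 late in spleen, and 0 instead of 1 for spleen and thymus against the intestines. With single libraries left out, the counts ran from 1 to 3 late in spleen (1 without the 2 h or 6 h library), 1 to 4 in thymus (1 without the 7 h or 8 h library) and 0 to 1 in NIH3T3 over 1 to 8 h (1 without the 1 h or 2 h library). The cause of these moves was not tested.

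Hours number the libraries alike in all tissues. Same-hour deviations correlated between tissues at a median r of 0.0408 (-0.127 to 0.324, 48 pairs). Other hours of the same window gave a median of -0.0177 (-0.346 to 0.127, 84 pairs). These values cannot tell whether the tissues of an hour came from the same animal, and the main fit did not pair hours. With hour as a replicate block, 1 member passed in large intestine over 1 to 8 h (Apaf1, adjusted p = 0.000875), 2 instead of 1 in spleen at 24 h (with Apaf1, adjusted p = 0.0466), 4 instead of 3 late in thymus (with Apaf1, adjusted p = 0.0263) and 4 instead of 5 there at 24 h. No block could be fitted in NIH3T3, with 1 library per hour, and no separate fit for NIH3T3 or the contrast of all 4 tissues.

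Precision is limited by 1 library per hour, single control libraries and unknown depth, so small changes could not be detected.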

Other observations

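Of 8 apoptosome partners and inhibitor of apoptosis genes in thymus, 3 rose and 2 fell at 6 to 8 h against 1 to 5 h, where 18.6% of all genes rose and 13.4% fell. Birc3, which encodes cIAP2, rose by 0.66 ± 0.14 and Birc5, which encodes survivin, fell by 1.15 ± 0.33 on the log2 scale (limma adjusted p = 0.000677 and 0.0101). In spleen 0 of the 8 rose and 2 fell, where 15.4% of all genes rose and 12.2% fell, and Birc3 fell by 0.81 ± 0.14 over the same hours (limma adjusted p = 0.000185). The median of the 8 was -0.03 in thymus and in spleen.

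Of 5 genes whose proteins caspases cleave during nuclear breakdown, 1 rose and 4 fell at 6 to 8 h against 1 to 5 h in thymus, where 18.6% of all genes rose and 13.4% fell. Parp1 fell by 0.55 ± 0.15 and Lmnb1, which encodes lamin B1, by 0.82 ± 0.15 (limma adjusted p = 0.00647 and 0.000137). At 24 h Lmnb1 was lower in thymus by -3.62 ± 0.28 and in spleen by -1.55 ± 0.28 (limma adjusted p = 8.83e-10 and 0.000522), the thymus library being the one with enterocyte markers at 10.8% of small intestine. The median of the 5 in thymus at 24 h was -1.06, against 0.15 for all genes tested.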
